A study of Homo sapiens with 6 samples.

Results

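CLDN3, CLDN7, OCLN, MARVELD2 and ESRP2 were followed across 3 human ovarian cancer cell lines on Affymetrix expression arrays. CLDN3 and CLDN7 encode claudins, OCLN encodes occludin, MARVELD2 encodes tricellulin and ESRP2 encodes an epithelial splicing regulator. The genes were taken by symbol from the array annotation, 1 probe set each, so 5 of the 14884 gene symbols named here are described. All 5 passed the filter for testing, a mean log2 signal of at least 5 over the arrays, which 8620 genes passed. The lines were SKOV-3, OVCAR-3 and ES-2, each labelled as ovarian cancer. Each line was transfected with miR-blank as the control or with miR-135a-3p, and 1 array was run per line and transfection, 6 in all. No label gives the form of the transfected RNA, its dose or the time of harvest, and nothing says that the arrays of a line came from separate cultures. Values are normalised log2 signals, so a difference of 1 is 2-fold, and array medians lay between 4.16 and 4.23. The deposited values carry no detection calls, and a signal near the median was not shown to be above background. On the arrays labelled OVCAR-3 the epithelial genes EPCAM and GRHL2 and the lineage factor PAX8 read near the array median. EPCAM and GRHL2 did so in all 3 lines and PAX8 also in ES-2, so these values do not set OVCAR-3 apart. The identity of the lines could not be checked here, which bears on each value below, those of OVCAR-3 included. In RNA of whole cultures, fewer cells with a transcript and less of it per cell cannot be told apart.

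Tight junctions seal the space between neighbouring epithelial cells. Claudins form the strands that set which ions and solutes pass, occludin lies along these strands, and tricellulin gathers where the corners of 3 cells meet, placed there by the receptor LSR. Cytoplasmic scaffolds such as ZO-1, encoded by TJP1, and cingulin, encoded by CGN, tie the strands to actin. ESRP2, like its relative ESRP1, promotes the epithelial splice forms of genes such as FGFR2 and CD44. Repressors of the SNAI and ZEB families bind the E-box CAGGTG in promoters of junction genes, and claudin-rich and mesenchymal states are often contrasted in ovarian carcinoma.

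The transfected microRNA is shown first because it defines the comparison. Its seed, bases 2 to 8, is in capitals, and the sequence is from RefSeq, GRCh38.p14, chr3:52294232-52294253, minus strand. The window upstream of a start site is shown for the 4 junction genes, since their order across the lines differed, with each CAGGTG E-box or its reverse complement CACCTG in capitals. These are the 250 bases before a start in RefSeq, GRCh38.p14, read in the direction of transcription. CLDN7 lies on the minus strand at chr17:7262479-7262728, CLDN3 on the minus strand at chr7:73770271-73770520, OCLN on the plus strand at chr5:69492297-69492546 and MARVELD2 on the plus strand at chr5:69414866-69415115.
miR-135a-3p: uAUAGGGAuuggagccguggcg
CLDN7: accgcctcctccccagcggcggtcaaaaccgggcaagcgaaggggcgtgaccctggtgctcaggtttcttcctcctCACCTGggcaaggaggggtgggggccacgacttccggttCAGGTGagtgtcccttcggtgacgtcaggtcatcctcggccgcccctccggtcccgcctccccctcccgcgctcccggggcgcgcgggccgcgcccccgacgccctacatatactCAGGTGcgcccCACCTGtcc
CLDN3: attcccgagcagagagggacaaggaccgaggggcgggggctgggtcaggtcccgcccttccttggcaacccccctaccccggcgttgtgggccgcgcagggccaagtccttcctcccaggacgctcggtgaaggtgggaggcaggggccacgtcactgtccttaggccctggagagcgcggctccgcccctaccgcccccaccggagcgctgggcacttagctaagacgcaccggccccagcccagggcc
OCLN: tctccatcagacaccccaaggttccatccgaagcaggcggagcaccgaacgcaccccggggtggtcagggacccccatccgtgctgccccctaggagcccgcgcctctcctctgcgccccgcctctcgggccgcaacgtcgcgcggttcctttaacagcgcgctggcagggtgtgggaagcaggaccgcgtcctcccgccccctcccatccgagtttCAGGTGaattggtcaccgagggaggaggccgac
MARVELD2: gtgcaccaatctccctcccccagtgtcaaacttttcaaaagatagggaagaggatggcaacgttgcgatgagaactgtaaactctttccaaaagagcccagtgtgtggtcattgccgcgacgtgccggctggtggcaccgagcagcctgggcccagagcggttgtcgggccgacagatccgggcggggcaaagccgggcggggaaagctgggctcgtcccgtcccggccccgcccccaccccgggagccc

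The CLDN7 window held 4 E-boxes, beginning between base −174 and base −9 from the start, and the window of a second CLDN7 start, further upstream, held 0. OCLN held 1, beginning at base −33, and the window of its second start also held 1, beginning at base −133. The printed CLDN7 window is that of the start further downstream, and the printed OCLN window that of the start further upstream. The CLDN7 count thus depends on the start chosen. CLDN3 and MARVELD2 held 0. Of 35116 such windows in the RefSeq table, 17.5% held at least 1 E-box, 2.53% at least 2 and 0.122% at least 4. A match describes letters in the window and shows no binding, and ESRP2 was matched to no window. OCLN and MARVELD2 are neighbours on chromosome 5, with no other protein-coding gene between them. CLDN3 neighbours CLDN4 on chromosome 7, and CLDN7 overlaps the end of ELP5 on chromosome 17.

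CLDN7 was highest in OVCAR-3. It read 9.24 in that line after miR-blank and 8.97 with miR-135a-3p, 4.87 and 5.26 in ES-2, and 4.94 and 5.09 in SKOV-3. Both OVCAR-3 arrays lay above all 4 others, and ES-2 and SKOV-3 overlapped. The line means were 9.11 ± 0.19 in OVCAR-3, 5.06 ± 0.28 in ES-2 and 5.01 ± 0.10 in SKOV-3 (SD, n = 2 arrays that also differ in transfection). The ES-2 signal was 16.5-fold below that of OVCAR-3 (limma adjusted p = 6.25e-05) and the SKOV-3 signal 17.1-fold below it (limma adjusted p = 8.69e-05). The signals of ES-2 and SKOV-3 were not shown to be above background, so these folds may depend on the floor of the array. ES-2 and SKOV-3 differed by 0.053 on the log2 scale, with a 95% interval from −0.44 to 0.55 and a limma adjusted p of 0.884.

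CLDN3, the other claudin, gave no such order. With miR-blank first and miR-135a-3p second, it read 5.80 and 6.30 in SKOV-3, 6.19 and 6.33 in ES-2, and 6.33 and 6.30 in OVCAR-3. The lines overlapped, and the lowest value was that of SKOV-3 after miR-blank. Of the 3 pairs of lines, limma called 0, with log2 differences of −0.05 for ES-2 minus OVCAR-3, 0.21 for ES-2 minus SKOV-3 and 0.26 for OVCAR-3 minus SKOV-3. Their 95% intervals ran from −0.51 to 0.41, from −0.24 to 0.67 and from −0.19 to 0.72, so each excludes a 2-fold difference. The sign of the first difference turned to 0.010 after cyclic loess normalization.

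OCLN was low in ES-2 and high in the other lines. It read 5.34 and 5.59 in ES-2, 8.63 and 8.30 in SKOV-3, and 8.84 and 9.05 in OVCAR-3. Both ES-2 arrays lay below the other 4, and the OVCAR-3 arrays lay just above those of SKOV-3. ES-2 was 11.1-fold lower than OVCAR-3 (limma adjusted p = 8.52e-05) and 8.0-fold lower than SKOV-3 (limma adjusted p = 0.000312). OVCAR-3 minus SKOV-3 was 0.48 on the log2 scale, with an interval from −0.011 to 0.96 and a limma adjusted p of 0.137. A partial copy of the gene, the transcribed pseudogene OCLNP1, has a probe set of its own, looked up after the values of OCLN were seen. OCLNP1 read 6.66 and 6.64 in ES-2, 8.68 and 8.05 in SKOV-3, and 8.69 and 8.73 in OVCAR-3, with limma adjusted p of 0.000924, 0.00314 and 0.295 for the same 3 pairs. Signal of the gene and of its copy was not told apart here, which leaves the size of the OCLN difference uncertain.

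MARVELD2 was highest in SKOV-3. It read 7.09 on both SKOV-3 arrays, 5.14 and 4.27 in OVCAR-3, and 3.78 on both ES-2 arrays. The 3 lines did not overlap. Both ES-2 arrays lay below the array median and the OVCAR-3 array after miR-135a-3p at it (4.27 against 4.23), so the folds against these lines depend on the floor of the array. The gene passed the filter through its SKOV-3 signal, with a mean of 5.19 over the 6 arrays. SKOV-3 was 9.92-fold above ES-2 (limma adjusted p = 0.000473) and 5.22-fold above OVCAR-3 (limma adjusted p = 0.00122). ES-2 minus OVCAR-3 was −0.93, with an interval from −1.54 to −0.32 and a limma adjusted p of 0.0367, but under 2-fold and so not called. Without the OVCAR-3 array after miR-135a-3p that difference was −1.36 and called (limma adjusted p = 0.0267). OCLN and MARVELD2, chromosomal neighbours, thus shared the low level in ES-2 and differed in OVCAR-3. RAD17, the checkpoint gene on the other side of MARVELD2, read between 7.89 and 8.22 on the 6 arrays, and ELP5, which overlaps CLDN7, between 7.42 and 8.24, and limma called 0 of the 3 pairs of lines for either. These neighbours were added with the values known.

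ESRP2, like CLDN7, was highest in OVCAR-3, over a smaller range. It read 6.68 and 6.31 in OVCAR-3, 4.78 and 5.26 in ES-2, and 5.11 and 5.30 in SKOV-3. Both OVCAR-3 arrays lay above the other 4, while ES-2 and SKOV-3 overlapped near 5. OVCAR-3 was 2.78-fold above ES-2 (limma adjusted p = 0.00485) and 2.44-fold above SKOV-3 (limma adjusted p = 0.0093). Both calls were lost without the OVCAR-3 array after miR-blank, where the log2 differences were −1.12 for ES-2 minus OVCAR-3 (adjusted p = 0.0514) and 0.94 for OVCAR-3 minus SKOV-3 (adjusted p = 0.0937). ES-2 minus SKOV-3 was −0.19, with an interval from −0.74 to 0.37. Over the 6 arrays CLDN7 and ESRP2 correlated at a Pearson r of 0.973 and OCLN and MARVELD2 at 0.603. OCLN was about as close to ESRP2 (0.664) and to CLDN7 (0.592). These values describe 3 lines with 2 arrays each and carry no test.

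**Figure D1:**
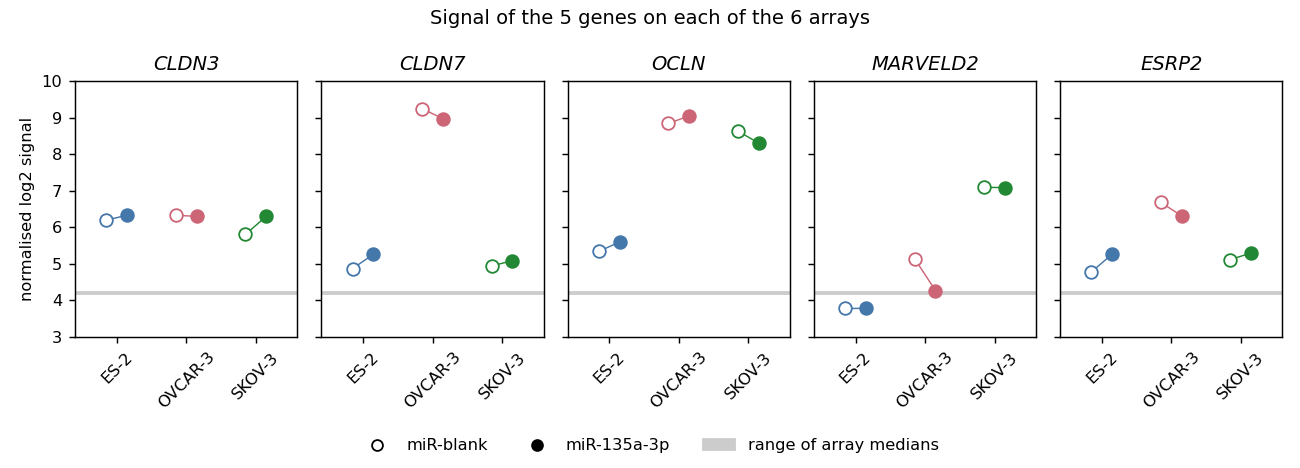
Normalised log2 signal (vertical axis) of each gene on the 6 arrays, grouped by cell line, with open points after miR-blank and filled points after miR-135a-3p. CLDN7 and ESRP2 stand highest in OVCAR-3, MARVELD2 in SKOV-3, OCLN is low in ES-2, and CLDN3 is level; the grey band marks the array medians, 4.16 to 4.23, and heights are not comparable between genes.

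Counted over the set, ES-2 against OVCAR-3 gave 3 of the 5 genes called lower and 0 higher, where 7.82% of all tested genes were lower, 8.65% higher and 16.5% either. ES-2 against SKOV-3 gave 2 lower and 0 higher, where 7.29% of all genes were lower, 4.85% higher and 12.1% either. OVCAR-3 against SKOV-3 gave 2 higher and 1 lower, where 5.60% of all genes were higher, 8.96% lower and 14.6% either. CLDN7 and ESRP2 were called higher in OVCAR-3 than in both other lines, a pattern of 3.36% of all genes, and OCLN lower in ES-2 than in both, a pattern of 2.82%. MARVELD2 was called higher in SKOV-3 than in both other lines, as were 2.97% of all genes, and 0 of the 5 were called higher in ES-2 than in both, as were 2.95%. CLDN3 was called in no pair, as were 74.8% of all genes. A call needed an adjusted p under 0.05 over all 8620 genes and at least 2-fold. These genes were chosen with earlier results of these arrays known, so the counts describe them. With 2 arrays per line, every call drew on the spread over all genes, which limma uses to steady each gene's own. Without that moderation 0 of the 5 genes were called in any pair, with adjusted p of 0.0822 to 0.195 for the 8 differences called above, and 3, 2 and 2 of the genes had an unadjusted p under 0.05 in the 3 pairs.

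**Figure D2:**
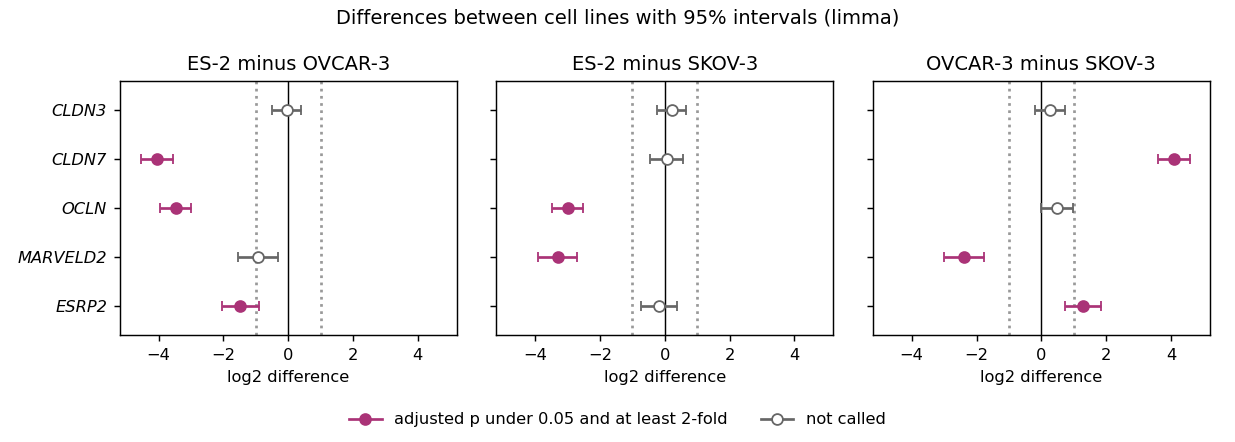
Log2 differences between lines (horizontal axis) for each gene, as points with 95% intervals from limma, 1 panel per pair of lines; dotted lines mark 2-fold. CLDN7 lies near −4 or 4 wherever OVCAR-3 is compared, OCLN and MARVELD2 lie at −3.0 and −3.31 for ES-2 minus SKOV-3, and all CLDN3 intervals cross 0.

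After miR-135a-3p, none of the 5 genes was called in the comparison over lines, where limma called 1 of 8620 genes, 0.0116%, and 251 (2.91%) at an unadjusted p under 0.05, of which 0 were among these 5. The hairpin gene MIR135A1 read 1.75 to 2.26 after miR-blank and 11.58 to 12.57 after miR-135a-3p, as the labels state, and was the gene called. The mean log2 differences, miR-135a-3p minus miR-blank, were 0.20 ± 0.27 for CLDN3, 0.087 ± 0.34 for CLDN7, 0.044 ± 0.32 for OCLN, −0.29 ± 0.50 for MARVELD2 and 0.10 ± 0.43 for ESRP2 (SD, n = 3 lines). All had a limma adjusted p of 0.999. The 95% intervals reached from −0.17 to 0.57 for CLDN3, from −0.32 to 0.49 for CLDN7, from −0.35 to 0.44 for OCLN, from −0.79 to 0.21 for MARVELD2 and from −0.35 to 0.56 for ESRP2. Without OVCAR-3 the MARVELD2 mean was −0.0011. Each interval excludes a common 2-fold change over the lines and leaves room for smaller ones. None of the 5 moved the same way in all 3 lines, where 23% of all genes did.

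Within the lines the differences are descriptions, with 1 array on each side. In ES-2 all 5 genes read higher after miR-135a-3p, by 0.0033 for MARVELD2 up to 0.49 for ESRP2, and 0 passed 1.5-fold, against 3.46% of all genes. In OVCAR-3, CLDN7, ESRP2 and MARVELD2 read lower by −0.27, −0.37 and −0.87, CLDN3 changed by −0.029 and OCLN by 0.21. MARVELD2, which went from 5.14 to 4.27, was the 1 gene of the 5 past 1.5-fold there, against 3.92% of all genes, and it ended at the array median. In SKOV-3, CLDN3 read higher by 0.50, ESRP2 by 0.18 and CLDN7 by 0.15, OCLN differed by −0.33 and MARVELD2 by −0.0055. None of the 5 passed 1.5-fold in SKOV-3, where 15.4% of all genes did. The differences between lines thus exceeded those between transfections for CLDN7, OCLN, MARVELD2 and ESRP2. Their widest log2 differences were 4.10, −3.48, −3.31 and −1.47 between lines against 0.39, −0.33, −0.87 and 0.49 within one. For CLDN3 the widest were 0.26 between lines and 0.50 within one.

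**Figure D3:**
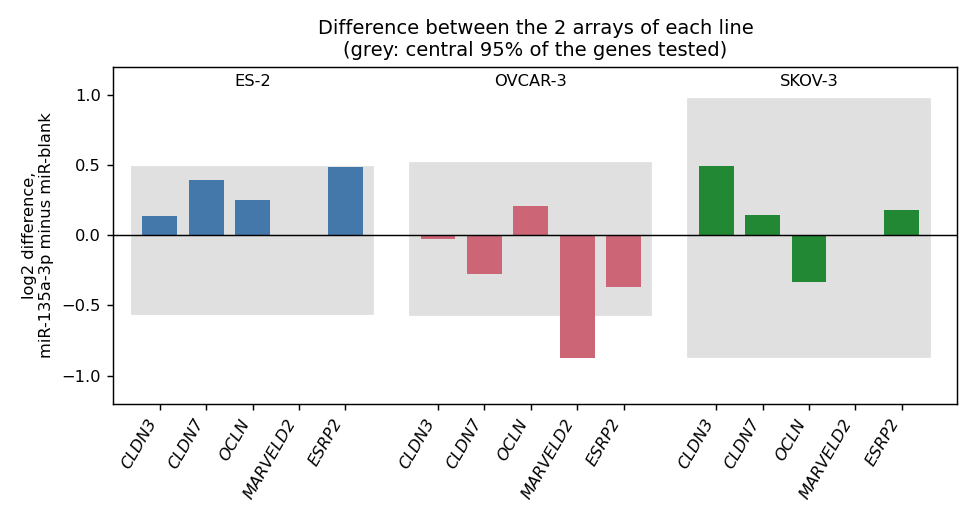
Log2 difference between the arrays of each line, miR-135a-3p minus miR-blank (vertical axis), as bars for the 5 genes, over a grey box that spans the central 95% of the genes tested in that line. The MARVELD2 bar of OVCAR-3 (−0.87) lies outside its box, ESRP2 of ES-2 (0.49) is at the edge of its box, and the box of SKOV-3 is the widest.

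Of 21 other claudins, all named on the array, 9 passed the filter, CLDN1 and CLDN11 were called, and the other 7 were called in no pair of lines, a share near the 74.8% of all genes. Some genes of this and the following lists passed the filter only through the line where they are high, so counts over a list are descriptions. CLDN1, a claudin of the skin barrier, read 10.13 and 8.74 in SKOV-3, 4.33 and 4.32 in ES-2, and 3.53 and 3.59 in OVCAR-3, after miR-blank and miR-135a-3p respectively. Its SKOV-3 mean was called above ES-2 (limma adjusted p = 0.000339) and above OVCAR-3 (limma adjusted p = 0.000151), and it passed the filter through SKOV-3 alone. CLDN11, the claudin of myelin and Sertoli cells, read 7.78 and 7.24 in OVCAR-3, 5.52 and 4.89 in ES-2, and 4.5 and 4.45 in SKOV-3. OVCAR-3 was 4.94-fold above ES-2 and 8.21-fold above SKOV-3 (limma adjusted p = 0.000395 and 0.000196). The SKOV-3 mean of 4.47 was not shown to be above background, so the fold against SKOV-3 depends on the floor of the array. CLDN4, the neighbour of CLDN3, read between 3.56 and 5.25, did not pass the filter and lay above its array median by over 1 only in SKOV-3 after miR-blank. The median log2 difference over the 9 tested claudins was −0.062 for ES-2 minus OVCAR-3, 0.045 for ES-2 minus SKOV-3 and −0.033 for OVCAR-3 minus SKOV-3, beside −0.040, −0.039 and −0.0054 over all genes. The called claudins were highest in OVCAR-3 for CLDN7 and CLDN11 and in SKOV-3 for CLDN1.

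Among the other junction membrane proteins, 8 of 12 were named and 2 tested, LSR and the polarity protein CRB3, which was called in no pair. The untested members included JAM3, a junctional adhesion molecule, and MARVELD1, a relative of MARVELD2, both highest in ES-2 and below the filter over the 6 arrays. JAM3 read 6.33 and 6.62 in ES-2, 3.63 and 3.35 in SKOV-3, and 3.43 and 3.72 in OVCAR-3. MARVELD1 read 6.35 and 5.84 in ES-2, 3.98 and 3.65 in SKOV-3, and 3.85 and 3.81 in OVCAR-3. Both were thus below the array medians outside ES-2, and both were singled out after their values were seen. LSR, which places tricellulin, read 6.07 and 6.44 in ES-2, 8.66 and 8.0 in SKOV-3, and 10.07 and 9.51 in OVCAR-3. Its ES-2 signal lay 11.6-fold below OVCAR-3 (limma adjusted p = 0.00026) and 4.22-fold below SKOV-3 (limma adjusted p = 0.00374). OVCAR-3 was 2.74-fold above SKOV-3 (limma adjusted p = 0.011), a call lost without the OVCAR-3 array after miR-blank (adjusted p = 0.117) or after miR-135a-3p (adjusted p = 0.0619). LSR and MARVELD2 thus shared a called difference between SKOV-3 and ES-2, while OVCAR-3 was high in LSR and not in MARVELD2.

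Of 20 scaffold and polarity genes, 12 were named and 10 tested. In ES-2 against OVCAR-3, 5 were called lower, TJP1, CGN, TJP3, PATJ and PARD6A, and MPDZ was called higher, where 7.82% of all genes were lower and 8.65% higher, with a median of −0.86 beside −0.040 over all genes. TJP1 read 11.25 and 11.16 in OVCAR-3, 8.53 and 8.89 in ES-2, and 9.39 and 8.87 in SKOV-3, and CGN read 6.67 and 6.72, 4.71 and 4.79, and 5.33 and 5.23 in the same order. Both had OVCAR-3 above ES-2 (limma adjusted p = 0.000572 and 0.000341) and above SKOV-3 (limma adjusted p = 0.00157 and 0.00161). PATJ, a scaffold of the Crumbs polarity complex, was low in ES-2 and high in the other lines, as OCLN was. Its line means were 7.48 in SKOV-3, 7.47 in OVCAR-3 and 4.29 in ES-2. TJP3, encoding ZO-3, was called between ES-2 and OVCAR-3 alone (limma adjusted p = 0.0436), and that call was lost without the ES-2 array after miR-blank (adjusted p = 0.165), without either OVCAR-3 array (0.0698 and 0.312) and with no filter (0.0583). In ES-2 against SKOV-3, 1 of the 10 scaffold genes was called higher and 1 lower, where 12.1% of all genes were called either way. In OVCAR-3 against SKOV-3, 2 were called higher and 1 lower, where 14.6% of all genes were called.

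**Figure D4:**
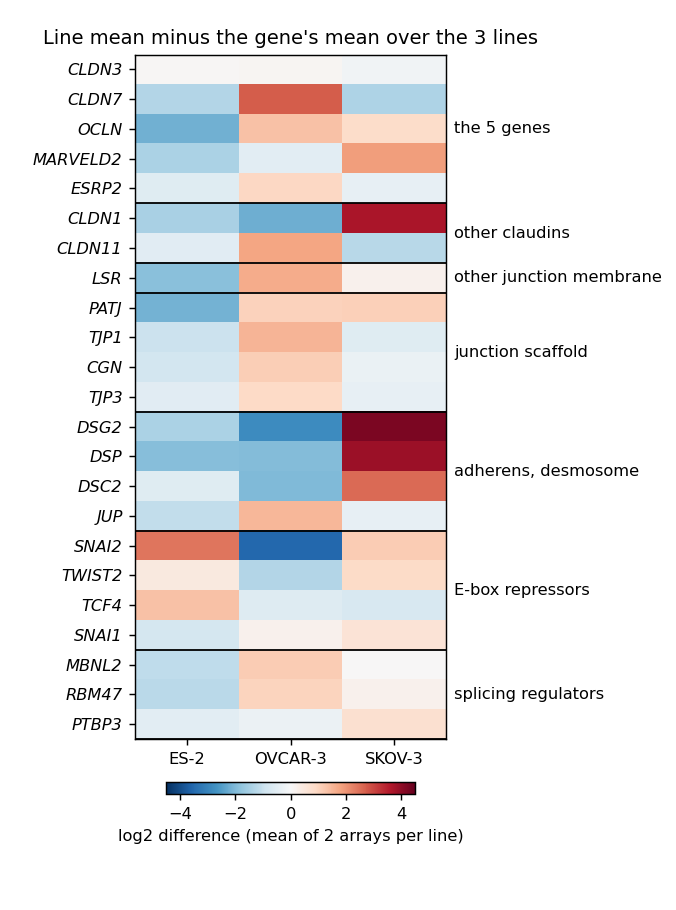
Line mean minus the mean of the gene over the 3 lines, on a log2 colour scale, for the 5 genes and for up to 4 genes of each list shown with the largest called line difference. CLDN7, ESRP2, CLDN11, LSR, TJP1 and CGN are red in OVCAR-3, CLDN1 and MARVELD2 are red in SKOV-3, and OCLN and PATJ are blue in ES-2 alone.

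ESRP1, the relative of ESRP2, read 2.80 to 4.28 on the 6 arrays, at or below the array median on all but SKOV-3 after miR-blank, and did not pass the filter. Of 14 splicing regulators listed, ESRP1 among them, 10 were named and 8 tested. For ES-2 against OVCAR-3, RBM47 and MBNL2 were called lower and 0 higher, where 7.82% of all genes were lower and 16.5% called either way. In no pair of lines were 5 of the 8 called, against 74.8% of all genes. RBM47, an RNA-binding protein of epithelial cells, read 4.02 and 4.2 in ES-2, 5.76 and 5.26 in SKOV-3, and 6.40 and 6.25 in OVCAR-3, with ES-2 below OVCAR-3 (limma adjusted p = 0.000536) and below SKOV-3 (limma adjusted p = 0.00546). MBNL2, a splicing regulator known from muscle and brain, was called in all 3 pairs, with line means of 10.51 in OVCAR-3, 9.38 in SKOV-3 and 8.21 in ES-2. Without the OVCAR-3 array after miR-blank, its adjusted p was 0.0501 for ES-2 minus SKOV-3 and 0.0786 for OVCAR-3 minus SKOV-3, and other single arrays also ended these calls. PTBP3 was called higher in SKOV-3 than in both others, and its call against OVCAR-3 was lost without either OVCAR-3 array (adjusted p = 0.0747 and 0.0796) and without the SKOV-3 array after miR-blank, where the log2 difference of −0.92 was under 2-fold. The abundant regulators PTBP1, HNRNPM and SRSF1 were called in none of the 3 pairs, with 0.17 for PTBP1 between ES-2 and OVCAR-3 as their widest log2 difference.

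Genes with exons known to be regulated by ESRP proteins were measured as whole genes, so these values do not show which exons were used. Of 17, 11 were named and tested, and in ES-2 against OVCAR-3, 2 were called higher and 3 lower, where 8.65% of all genes were higher and 7.82% lower. FGFR2, the receptor with an epithelial and a mesenchymal form, read 8.09 and 7.65 in OVCAR-3, 3.63 and 4.66 in ES-2, and 5.32 and 4.77 in SKOV-3. OVCAR-3 was 7.09-fold above SKOV-3 (limma adjusted p = 0.0032) and was called above ES-2 (limma adjusted p = 0.00083), for which no fold is given, as the ES-2 mean of 4.15 was not shown to be above background. CD44, the hyaluronan receptor, had the opposite order, with 2.74 and 3.09 in OVCAR-3, 8.07 and 8.05 in ES-2, and 6.90 and 7.42 in SKOV-3. Its ES-2 signal was called above that of OVCAR-3 (limma adjusted p = 2.35e-05), which lay below the array median, so no fold is given. RALGPS2, with line means of 8.49 in ES-2, 8.60 in SKOV-3 and 4.88 in OVCAR-3, was called lower in OVCAR-3 than in either other line.

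All 9 E-box repressors were named and 7 were tested. In ES-2 against OVCAR-3, 3 were called higher, SNAI2, TWIST2 and TCF4, and 0 lower, where 8.65% of all genes were higher and 7.82% lower. In OVCAR-3 against SKOV-3, 2 were called lower, SNAI2 and TWIST2, where 8.96% of all genes were. In ES-2 against SKOV-3, TCF4 was called higher and SNAI1 lower, where 4.85% and 7.29% of all genes were. SNAI2, encoding Slug, read 4.94 and 4.70 in OVCAR-3, where CLDN7 was high, 10.66 and 10.87 in ES-2, and 8.47 and 10.57 in SKOV-3. ZEB1 read 6.77 to 7.45 on the 6 arrays and was called in none of the 3 pairs. SNAI2 was high in SKOV-3, where OCLN and MARVELD2 were also high. Any link between these repressors and the 5 genes was not tested. With 3 lines it cannot be told apart from other differences between the lines. The TWIST2 call between ES-2 and OVCAR-3 was lost without the ES-2 array after miR-blank (adjusted p = 0.0662) or the OVCAR-3 array after miR-135a-3p (adjusted p = 0.19), and that between OVCAR-3 and SKOV-3 without the latter (0.105). The SNAI1 call was lost without the ES-2 array after miR-135a-3p (adjusted p = 0.057).

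The lines were also checked against markers of their type. KRT18, a keratin of simple epithelia, read 9.36 to 10.47 on the 6 arrays, and its partner KRT8 read 5.29 to 6.75. KRT7, a keratin of ducts and glands, averaged 6.56 in ES-2, 5.63 in SKOV-3 and 4.34 in OVCAR-3, with ES-2 above OVCAR-3 (limma adjusted p = 0.0227), a call lost without the OVCAR-3 array after miR-blank (adjusted p = 0.128). EPCAM, an epithelial adhesion protein that binds CLDN7, read 3.78 to 4.32 and was not shown to be above background in any line, and the epithelial transcription factor GRHL2 read 3.66 to 3.87. PAX8, a factor of the Mullerian lineage, read 8.80 and 8.12 in SKOV-3 but 4.12 to 4.80 in ES-2 and OVCAR-3, near the array medians. CDH1, encoding E-cadherin, was unnamed here. Of 7 leukocyte markers 4 were named, and CD14 and LAPTM5 lay at 3.44 to 4.17 as line means. The log2 of the summed signal of the 4 was 10.24 to 10.48 in ES-2, 8.30 to 10.31 in SKOV-3 and 7.82 to 8.03 in OVCAR-3, most of it from CD68, a lysosomal protein also made outside leukocytes. For the 3 named of 5 endothelial markers the same sum was 5.70 to 6.01 on all arrays. For the 4 named of 10 mesenchymal markers it was 12.01 to 12.13 in ES-2, 9.83 to 10.40 in SKOV-3 and 6.74 to 7.61 in OVCAR-3. The members did not share this order. VIM averaged 9.86 in SKOV-3 and 5.31 in OVCAR-3, while FN1 averaged 4.90 and 5.52 and was not called between them. The median of OVCAR-3 minus SKOV-3 over the 3 tested mesenchymal markers was 0.20. The part of any of these in the results was not tested.

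The genes most like each of the 5 over the 6 arrays were sought among genes with an SD of at least 0.5. Nearest to CLDN7 were SPDYC, SLX4IP and RGS8 (Pearson r of 0.9997, 0.9997 and 0.9987), and 181 of 2268 genes had an r of at least 0.95. Nearest to ESRP2 were TTC38, LINC01123 and CNNM4 (0.9925, 0.9901 and 0.9889), and nearest to OCLN were HSBP1L1, ZYG11A and OCRL (0.9978, 0.9967 and 0.9955). MARVELD2 was nearest to ORMDL2, LINC00963 and FECH (0.9964, 0.9923 and 0.9906). CLDN3, whose SD over the arrays was 0.21, was nearest to PHACTR2 at 0.9642 and had 1 gene at 0.95 or above, where CLDN7 had 181, OCLN 95, MARVELD2 81 and ESRP2 98. With 3 lines an r this high is common among genes that set 1 line apart, so it describes a shared order of lines and carries no test. For CLDN3 the next values were 0.9306 for ETV4 and 0.9211 for MIR3689B, a locus of a near-identical family whose signal is uncertain.

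In these lists limma called 0 genes between the transfections. The widest mean difference among the tested genes of the lists was that of the desmosomal gene DSG2, −1.07 ± 1.35, of which ES-2 alone had −2.63. Among the markers, FN1 had 0.69 ± 1.34, MSLN 0.64 ± 0.67 and CD68 0.54 ± 1.48. In the other lists the widest were those of CLDN1 (−0.45 ± 0.81) and CLDN11 (−0.41 ± 0.31) among claudins, PARD6B (−0.39 ± 0.39) among scaffolds, SNAI2 (0.69 ± 1.24) and SNAI1 (−0.68 ± 0.48) among repressors and RALGPS2 (−0.71 ± 1.09) among ESRP targets, each SD over 3 lines and each with a limma adjusted p of 0.999. CLDN1 differed by −1.38 in SKOV-3, −0.017 in ES-2 and 0.062 in OVCAR-3, and SNAI2 by 2.10, 0.21 and −0.24, so most of both means came from SKOV-3. CLDN11 read lower in all 3 lines, by −0.054 in SKOV-3, −0.53 in OVCAR-3 and −0.64 in ES-2. LSR read higher by 0.37 in ES-2 and differed by −0.66 in SKOV-3 and −0.56 in OVCAR-3. The median over the 9 tested claudins was 0.028 and over the 10 scaffold genes −0.074, beside −0.0097 over all genes.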

How the data were processed

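Expression was measured on 6 arrays, 1 per cell line and transfection. The authors deposited log2 signals of 53617 probe sets. Per the submitters' processing notes, the tools were Transcriptome Analysis Console 3.0, Affymetrix Expression Console 1.4 and RMA, without a role or order, and the genome build is not given in the sources used here. RMA makes array distributions nearly equal, with medians of 4.16 to 4.23 here, so a shift of most genes would be removed. The log2 scale was read from the values and from RMA, and precision is limited by how few arrays there are.

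Gene names came from the platform annotation, updated with RefSeq identifiers: 16098 probe sets had 1 symbol, 37519 went unnamed here and 0 had more than 1. The brightest probe set of each gene was kept, and genes with a mean of at least 5 were tested. limma 3.58.1 in R 4.3.3 (lmFit, eBayes, two-sided, Benjamini-Hochberg over 8620 genes) compared transfections with the cell line as a block, and lines with the transfection as a term. Arrays are paired by the cell line they share, and paired deviations from group means had correlations of 0.904, 0.910 and 0.759. For lines, the scatter of the 2 arrays about the common transfection difference is the error, so p-values measure only the spread between these arrays, which may be technical. The procedure was tested on simulated data.

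The members and gene lists were chosen with earlier results of these data known. Other genes named were, by a written rule, the 3 most correlated with each member, up to 4 per list with the largest called line difference and 2 with the largest transfection difference; further named genes were chosen after their values were seen. Alternatives were the filter, normalization, variance moderation, probe set summary, block or term, and leaving out lines or arrays. Protein sequences were not used here.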

Additional observations from a re-analysis of the deposited data

Results flagged for a closer look

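A gene was set apart where the transfection difference passed 1.5-fold upward in 1 line and downward in another, and 0 of the 5 genes did so. Of the other genes named, 3 did, and the differences between lines were not tested, since each rests on 1 pair of arrays. TJP3 differed by 0.60 in OVCAR-3 and −1.15 in SKOV-3. PAX8 differed by 0.63 in ES-2, where it read near the array median, and by −0.68 in SKOV-3. KRT7, a keratin, differed by 1.03 in OVCAR-3, where its mean was 4.34, and by −1.53 in SKOV-3. Genes named in other ways were outside this check, ELP5 among them. ELP5, which overlaps CLDN7, differed by −0.78 in ES-2 and 0.78 in SKOV-3, also past 1.5-fold in opposite directions.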

How the results depend on the processing

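Over the 5 genes, 277 recomputed differences gave 257 with the same direction and side of the threshold. Many of these could not change direction. Changing the filter, the variance moderation, the probe set summary or the block or term leaves the difference itself as it was and can move only the call. The same holds for a pair of lines when an array of the third line is left out. The 8 called line differences kept their direction throughout, and CLDN7, OCLN and MARVELD2 lost calls under no variance moderation alone. That setting called 0 genes for ES-2 minus OVCAR-3 (2434 at an unadjusted p under 0.05), 4 for ES-2 minus SKOV-3 (2031), 0 for OVCAR-3 minus SKOV-3 (2246) and 0 for the transfections (337), and 0 of the 5 genes in each. At a mean of at least 6, which leaves 3 of the 5 genes, 1 was called for ES-2 minus SKOV-3 and 1 for OVCAR-3 minus SKOV-3. Leaving out 1 array at a time gave 2 to 4 of the 5 genes for ES-2 minus OVCAR-3, 2 to 2 for ES-2 minus SKOV-3 and 2 to 3 for OVCAR-3 minus SKOV-3. Over all genes it gave 1044 to 1440, 937 to 1281 and 808 to 1409 calls. The lowest count, 808, came without the OVCAR-3 array after miR-135a-3p, with 817 without that after miR-blank. Here the line left with 1 array is assumed to vary like the others. For the transfections, leaving out 1 line gave 1 to 4 calls over all genes, the 4 without SKOV-3, and 0 among the 5 genes. The fit with no replicate block, which ignores the pairing by line, called 1 gene and 0 of the 5.

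Small uncalled differences turned sign. CLDN3 gave 0.010 after cyclic loess and 0.12 without the OVCAR-3 array after miR-blank (ES-2 minus OVCAR-3), and −0.0081 without the SKOV-3 array after miR-blank (ES-2 minus SKOV-3). ES-2 minus SKOV-3 became 0.11 for ESRP2 without the ES-2 array after miR-blank and −0.17 for CLDN7 without that after miR-135a-3p. Without ES-2 the transfection difference was −0.064 for CLDN7, −0.061 for OCLN and −0.092 for ESRP2, and without OVCAR-3 it was −0.038 for OCLN. MARVELD2 kept its sign there at −0.0011. The 56 called differences of other named genes gave 815 fits, many of which likewise could not change direction. Of the 815, 0 reversed and 78 lost the call, 56 of them without moderation. The causes were not tested. Leaving out 1 line or array at a time, the lowest and highest values were −0.064 to 0.27 (CLDN7), −0.061 to 0.23 (OCLN) and −0.092 to 0.34 (ESRP2) for the transfections, −0.22 to 0.12 for CLDN3 in ES-2 minus OVCAR-3, and for ES-2 minus SKOV-3 −0.0081 to 0.43 (CLDN3), −0.17 to 0.28 (CLDN7) and −0.48 to 0.11 (ESRP2).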

Other observations

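Of 13 desmosome and adherens junction genes, 8 were named and 7 tested, and 3 were called higher in SKOV-3 than in both other lines, the desmosomal genes DSG2, DSP and DSC2, where 2.97% of all genes were. DSP passed the filter through SKOV-3 alone and DSG2 mainly through it, so this count is a description. DSG2, a desmosomal cadherin, read 3.24 and 2.89 in OVCAR-3, 5.79 and 3.16 in ES-2, and 10.25 and 10.02 in SKOV-3, each with miR-blank first. DSP, the desmosomal plaque protein desmoplakin, averaged 9.64 in SKOV-3, 3.85 in ES-2 and 3.82 in OVCAR-3 (limma adjusted p = 0.000131 and 9.74e-05 for SKOV-3 against ES-2 and OVCAR-3). JUP, plakoglobin, which serves adherens junctions and desmosomes, averaged 8.15 in OVCAR-3, its highest line, against 5.54 for ES-2 and 6.27 for SKOV-3, and was called above both, as CLDN7 was. KLF5, an epithelial transcription factor, averaged 7.73 in SKOV-3, 5.33 for ES-2 and 5.18 for OVCAR-3, and was called higher in SKOV-3 than in both (limma adjusted p = 0.00438 and 0.00273).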
